A study of Mus musculus with 55 samples.

Results

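Acetylation of histone H3 at lysine 27 (H3K27ac) was mapped by ChIP-seq in the tailbud and in anterior tissue of wild-type mouse embryos at E9.5, with 2 libraries per tissue. These are 4 of the 55 samples of a series on the Cdx and T transcription factors, and 4 of its 21 samples with a list of regions. They were chosen by their labels, as every H3K27ac library of E9.5 tissue, and hold 205628 of the 382065 regions listed in the series. The libraries are tailbud replicate 1 and tailbud replicate 2, set against anterior replicate 1 and anterior replicate 2. All 4 samples were untreated and crosslinked for 10 minutes before immunoprecipitation with the Abcam antibody ab4729. Per the labels, the antibody batch of replicate 1 in both tissues also binds H3K9ac, a mark of active promoters, and the submitters set those 2 data sets aside. Tailbud was therefore compared with anterior tissue within a replicate number, except in classes of loci that join the 4 lists and where stated. The labels do not give the sex of the embryos, how many were pooled, where the anterior tissue was cut, or whether the replicates came from separate litters. The tissue labels could not be checked against marker genes, because no annotation of the build of the files was used.

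The tailbud is the caudal end of the embryo, where axial progenitors that express T and Cdx genes add new trunk and tail tissue. Anterior tissue is made up of cell types that have mostly left that state. H3K27ac lies on nucleosomes at active promoters and enhancers. Long runs of it cover gene clusters that are active as a block, as the Hox clusters are when posterior genes are switched on. In a bulk sample, a region that is missing because fewer cells carry the mark and one missing because each cell carries less of it cannot be told apart.

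Each deposited list gives regions called by MACS2 as a chromosome, a start and an end in the mouse build mm9, with no score or read count. The sequencing depth behind a list is therefore unknown, and a region is either listed or not. Tailbud lists were longer than anterior lists in both replicates. On chromosomes 1 to 19 and X, tailbud replicate 1 held 39280 regions and tailbud replicate 2 held 76066. The anterior lists held 28597 regions in replicate 1 and 61669 in replicate 2. Within a replicate number the tailbud list was 1.37-fold longer in replicate 1 and 1.23-fold longer in replicate 2. The gap between replicates was wider than the gap between tissues, since replicate 2 held 1.94 times as many regions as replicate 1 in tailbud and 2.16 times as many in anterior tissue. With 2 libraries per tissue the smallest 2-sided p of an exact permutation test is 0.333, so no test between tissues was made. Intervals given below are 95% Wilson intervals over regions or loci, which cover counting error only and not the spread between embryos.

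Tailbud and anterior regions had nearly the same width. The median was 719 bp in tailbud and 731 bp in anterior tissue in replicate 1, and 762 bp in tailbud and 796 bp in anterior tissue in replicate 2. Wide regions made up a larger share of the tailbud list in replicate 1 and of the anterior list in replicate 2. Regions of at least 5 kb made up 0.331% of the tailbud list (130) and 0.241% of the anterior list (69) in replicate 1, but 0.747% of the tailbud list (568) and 0.778% of the anterior list (480) in replicate 2. For regions of at least 2 kb the shares were 8.89% in tailbud and 7.89% in anterior tissue in replicate 1, and 12.9% in tailbud and 13.9% in anterior tissue in replicate 2. The widest region of a list spanned 37379 bp in tailbud and 17004 bp in anterior tissue in replicate 1, and 106556 bp in tailbud and 52119 bp in anterior tissue in replicate 2. Together the regions covered 38.4 Mb in tailbud and 27.4 Mb in anterior tissue in replicate 1, and 83.2 Mb in tailbud and 69.5 Mb in anterior tissue in replicate 2. Of each list, 2 to 11 regions overlapped a region called in the input library of the same tissue and replicate number.

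**Figure D1:**
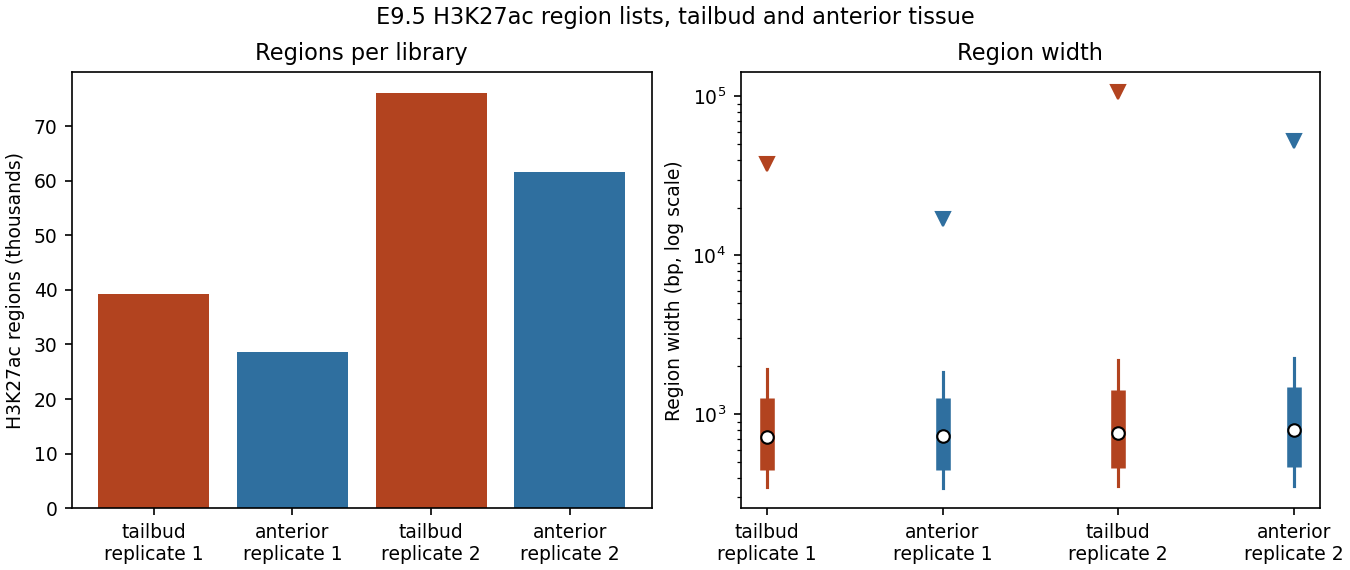
Left, H3K27ac regions per library, on an axis in units of 1000; right, region width in bp on a log axis, with the median as a circle, the middle 50% as a thick bar, the 10th to 90th percentile as a line and the widest region as a triangle. Tailbud (red) held more regions than anterior tissue (blue) in both replicates, the medians lie between 719 and 796 bp, and the widest region of each replicate is a tailbud one.

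More than 50% of the tailbud regions lay over an anterior region of the same replicate number, where an overlap of 1 bp counted. The share was 56.5% in replicate 1 (22183 of 39280; interval 56.0% to 57.0%) and 56.1% in replicate 2 (42658 of 76066; 55.7% to 56.4%). In the other direction, 81.4% of anterior regions lay over a tailbud region in replicate 1 and 69.7% in replicate 2. The share of tailbud regions found again in anterior tissue thus moved by less than 1 percentage point between replicates, while the anterior share moved by more than 10. Replicates of one tissue were nested. Of the regions of replicate 1, 98.5% of the tailbud ones and 99.1% of the anterior ones lay over a region of replicate 2 of the same tissue. Of the regions of replicate 2, 43.6% of the tailbud ones and 38.2% of the anterior ones lay over a region of replicate 1. These shares moved with list length. The longer list of anterior replicate 2 lay under 81.5% of the regions of tailbud replicate 1, against 56.5% for anterior replicate 1.

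Sharing between the tissues rose with width. Among tailbud regions of 300 bp to under 500 bp, 22.8% lay over an anterior region in replicate 1 and 29.4% in replicate 2, and among those of 2000 bp to under 5000 bp the shares were 95.2% and 90.1%. Anterior regions of 300 bp to under 500 bp lay over a tailbud region in 59.9% of cases in replicate 1 and 46.0% in replicate 2, and those of 2000 bp to under 5000 bp in 98.99% and 94.8%. At 5 kb and above, 118 of 130 tailbud regions were shared in replicate 1 (90.8%) and 545 of 568 in replicate 2 (96.0%). For anterior regions of that width the counts were 68 of 69 and 478 of 480. Unshared regions were narrow in every list. Their median width was 471 bp in tailbud replicate 1 and 517 bp in tailbud replicate 2, and 416 bp and 495 bp in the anterior lists of the same numbers. Shared tailbud regions had medians of 1082 bp and 1135 bp.

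**Figure D2:**
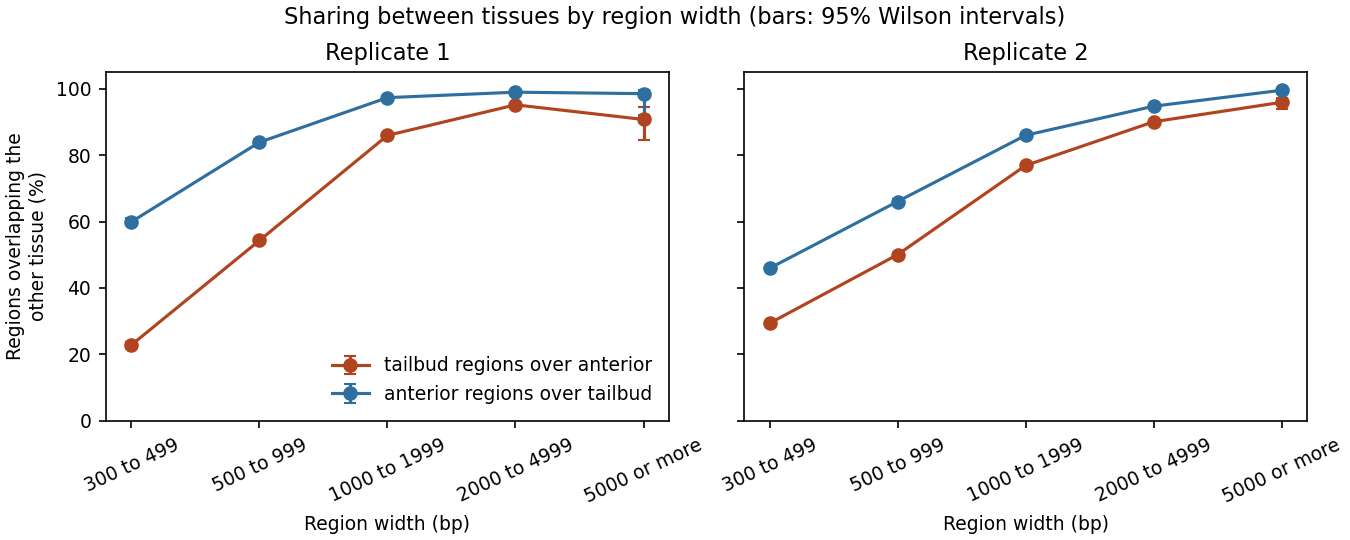
Share of regions (%) that overlap a region of the other tissue in the same replicate, by region width in bp, for tailbud regions over anterior (red) and anterior regions over tailbud (blue), with 95% Wilson intervals. The share rises with width up to 5 kb in both tissues and replicates, and the tailbud line lies under the anterior line in every width class.

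To compare places and not lists, all regions of the 4 libraries that overlapped or touched were merged into 92825 loci. A locus was called tailbud-specific when both tailbud lists and neither anterior list held it, and anterior-specific in the reverse case. By this definition a specific locus was in replicate 1 of its tissue and absent from the longer replicate 2 list of the other. The classes therefore also compare across replicate numbers. Tailbud-specific loci numbered 5252 (5.66% of loci) and anterior-specific loci 1288 (1.39%), a ratio of 4.08. A further 19697 loci (21.2%) were in all 4 lists, and the other 66588 had mixed patterns, mostly presence in replicate 2 alone. This ratio moved with list length too. When each tailbud list was cut to the widest regions so that it was as long as its anterior partner, 2531 tailbud-specific and 1682 anterior-specific loci were left. Specific loci were wider than most, with a median of 1094 bp for tailbud-specific and 1263 bp for anterior-specific ones, against 763 bp over all loci. A specific locus joins regions of both lists of a tissue, while many other loci were in a single list of replicate 2. The order of these widths therefore follows in part from the definition. Loci in all 4 lists had a median of 1904 bp.

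The tissue differences of replicate 1 were followed in replicate 2, whose labels carry no note on cross-reaction of the antibody. Loci listed in tailbud alone in replicate 1 numbered 13288 (36.2% of the loci of that replicate). In replicate 2, 5252 of them were again in tailbud alone (39.5%; 38.7% to 40.4%), 7543 were in both tissues (56.8%), 101 were in anterior tissue alone (0.760%) and 392 were in neither. Repeats of the tailbud-only state were thus 52.0 times as frequent as its reversal. Loci listed in anterior tissue alone in replicate 1 numbered 3657 (9.96%). Of these, 1288 were again in anterior tissue alone (35.2%; 33.7% to 36.8%), 2183 were in both tissues (59.7%) and 48 were in tailbud alone (1.31%), a ratio of repeats to reversals of 26.8. Nearly all replicate 1 regions lay over replicate 2 regions of the same tissue, 98.5% in tailbud and 99.1% in anterior tissue. A reversal could therefore seldom occur, so neither ratio measures how well a tissue difference repeated. Replicate 2 itself held 33342 loci in tailbud alone (36.1% of its loci) and 18661 in anterior tissue alone (20.2%). Another 40286 of its loci were in both tissues. The 36.1% and 20.2% are over all loci of replicate 2, also those absent from the list of the tissue in question. By the nesting, nearly all followed loci were in that list, so 39.5% and 35.2% cannot be read against them. Few of the loci in 1 tissue alone in replicate 2 were listed in replicate 1 at all. Of the 5338 tailbud-only loci of replicate 2 that replicate 1 also listed, 98.4% were in tailbud alone there, and of the 1422 anterior-only loci it listed, 90.6% were in anterior tissue alone. These shares are nearly set in advance by the nesting. A locus missing from the longer list of a tissue was seldom in its shorter list.

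Loci that moved from one tissue to both between the replicates still leaned to the first tissue in width. Of the 7543 loci in tailbud alone in replicate 1 and in both tissues in replicate 2, 82.9% covered more bases in tailbud in replicate 2, with a median log2 ratio of tailbud over anterior width of 0.54. Of the 2183 loci that were in anterior tissue alone in replicate 1, 88.0% covered more bases in anterior tissue in replicate 2, with a median log2 ratio of -0.70. Loci in both tissues in both replicates had a median of 0.01 in replicate 2.

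The widest tailbud-specific locus was chr5:148110286-148124208, at 13923 bp. Regions covered 13415 bp of it in tailbud replicate 1 and all 13923 bp in tailbud replicate 2, and no anterior region touched it. It was the only tailbud-specific locus of at least 10 kb, and it also lay over H3K27ac, CBP-P300 and Cdx2 regions of EpiSCs, the epiblast stem cells of the same series described below. Next came chr15:102761239-102771221 (9983 bp, of which 2230 bp in tailbud replicate 1), chr6:52259037-52268300 (9264 bp, of which 7642 bp) and chr4:87352669-87361438 (8770 bp, of which 4491 bp). Anterior-specific loci reached less far. The widest were chr13:55092815-55098676 at 5862 bp (2464 bp in anterior replicate 1) and chr2:29689915-29695094 at 5180 bp (3547 bp). They were followed by chr7:134064341-134069057 at 4717 bp (3038 bp) and chr12:118588368-118593037 at 4670 bp (2025 bp). At 5 kb or more there were 24 tailbud-specific and 2 anterior-specific loci.

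Within the 19697 loci of all 4 lists, the covered width served as a graded measure. The median log2 ratio of tailbud over anterior width was 0.15 in replicate 1 and 0.01 in replicate 2. Loci at least 2-fold wider in tailbud in both replicates numbered 293 (1.49%), and those at least 2-fold wider in anterior tissue in both numbered 169 (0.858%). Only 3 loci passed 2-fold in opposite directions. The sign of the ratio was the same in both replicates for 12755 loci (64.8%). Across loci, the ratios of the replicates had a Pearson correlation of 0.59 and a Spearman correlation of 0.50, a description over neighbouring loci that share libraries.

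The 4 loci named for each direction were chosen as those with the largest lean in both replicates, so that their direction is a description only. The locus that leaned most to tailbud was chr2:74510511-74556358. Regions covered 42744 bp of it in tailbud replicate 1 and 45848 bp in tailbud replicate 2, against 341 bp in anterior replicate 1 and 1309 bp in anterior replicate 2, log2 ratios of 6.97 and 5.13. At chr15:103006217-103014995 the widths were 6443 bp and 8779 bp in tailbud against 330 bp and 983 bp in anterior tissue (log2 ratios 4.29 and 3.16). The locus chr9:56688042-56693052 had 2666 bp and 5011 bp in tailbud against 407 bp and 749 bp, and it also lay over a Cdx2 site of EpiSCs. Last of the 4, chr17:67042205-67047661 had 3628 bp and 5457 bp in tailbud against 395 bp and 875 bp.

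Leaning most to anterior tissue was chr4:22403763-22409125, with 300 bp and 428 bp in tailbud against 3244 bp and 5363 bp in anterior tissue (log2 ratios -3.43 and -3.65). The widest of the 4 named was chr9:91271929-91284294, with 741 bp and 1497 bp in tailbud against 5653 bp and 12366 bp in anterior tissue (log2 ratios -2.93 and -3.05). The others were chr7:37661191-37664809, with 300 bp and 386 bp in tailbud against 2125 bp and 3619 bp, and chr6:112848497-112854422, with 379 bp and 990 bp in tailbud against 3187 bp and 5926 bp.

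The longest stretches of H3K27ac in either tissue were 4 loci that all 4 lists held, each wider in tailbud. They were picked out after their values were seen. Each had the extent of 1 region of tailbud replicate 2, so the 100% of that library follows from the merging. The longest was chr11:96111528-96218083, at 106.6 kb. Regions covered 94.0% of it in tailbud replicate 1 and 100% in tailbud replicate 2, against 45.8% in anterior replicate 1 and 56.2% in anterior replicate 2. Next was chr6:52101988-52204713, at 102.7 kb, with 94.1% and 100% covered in tailbud against 39.0% and 51.4% in anterior tissue. The locus chr15:102775564-102874885, at 99.3 kb, had 94.5% and 100% in tailbud against 14.5% and 22.5% in anterior tissue. The fourth was the chr2 locus above, with 93.2% and 100% in tailbud against 0.744% and 2.86% in anterior tissue. Right behind it lay chr2:74556486-74592639, of 36.2 kb, where the tissues were closer, at 87.3% and 97.5% in tailbud against 75.4% and 89.6% in anterior tissue.

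These loci lie on chromosomes 11, 6, 15 and 2. The RefSeq gene table of GRCm38.p6 places the 39 Hox genes, which give cells their position along the body axis, on the same 4 chromosomes, with 10, 11, 9 and 9 genes. No gene was placed in the loci, because that table uses another build.

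In each of the 4 loci tailbud replicate 1 covered most of both parts, while the anterior regions lay mostly towards one end. The 100% of tailbud replicate 2 in every part is set by how the loci were merged. On chromosome 11 the first 53.3 kb, counted from the lower coordinate, were covered to 94.4% and 100% in tailbud and to 3.43% and 14.6% in anterior tissue. In the remaining 53.3 kb the shares were 93.6% and 100% in tailbud against 88.1% and 97.7% in anterior tissue. On chromosome 6 the order along the chromosome was turned round. There the first 51.4 kb were covered to 92.2% and 100% in tailbud against 73.5% and 95.4% in anterior tissue, and the other 51.4 kb to 96.0% and 100% against 4.50% and 7.34%. On chromosome 15 the first 49.7 kb held 93.5% and 100% in tailbud against 0% and 1.03% in anterior tissue, and the rest 95.4% and 100% against 29.1% and 43.9%. The first 22.9 kb of the chr2 locus had 87.3% and 100% in tailbud and no anterior region in either replicate. In EpiSCs, H3K27ac regions covered 8.30% of the first and 30.4% of the second part on chromosome 11, and 51.5% and 5.03% on chromosome 6, so that on these chromosomes the end that was fuller in anterior tissue was also the fuller one in EpiSCs.

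**Figure D3:**
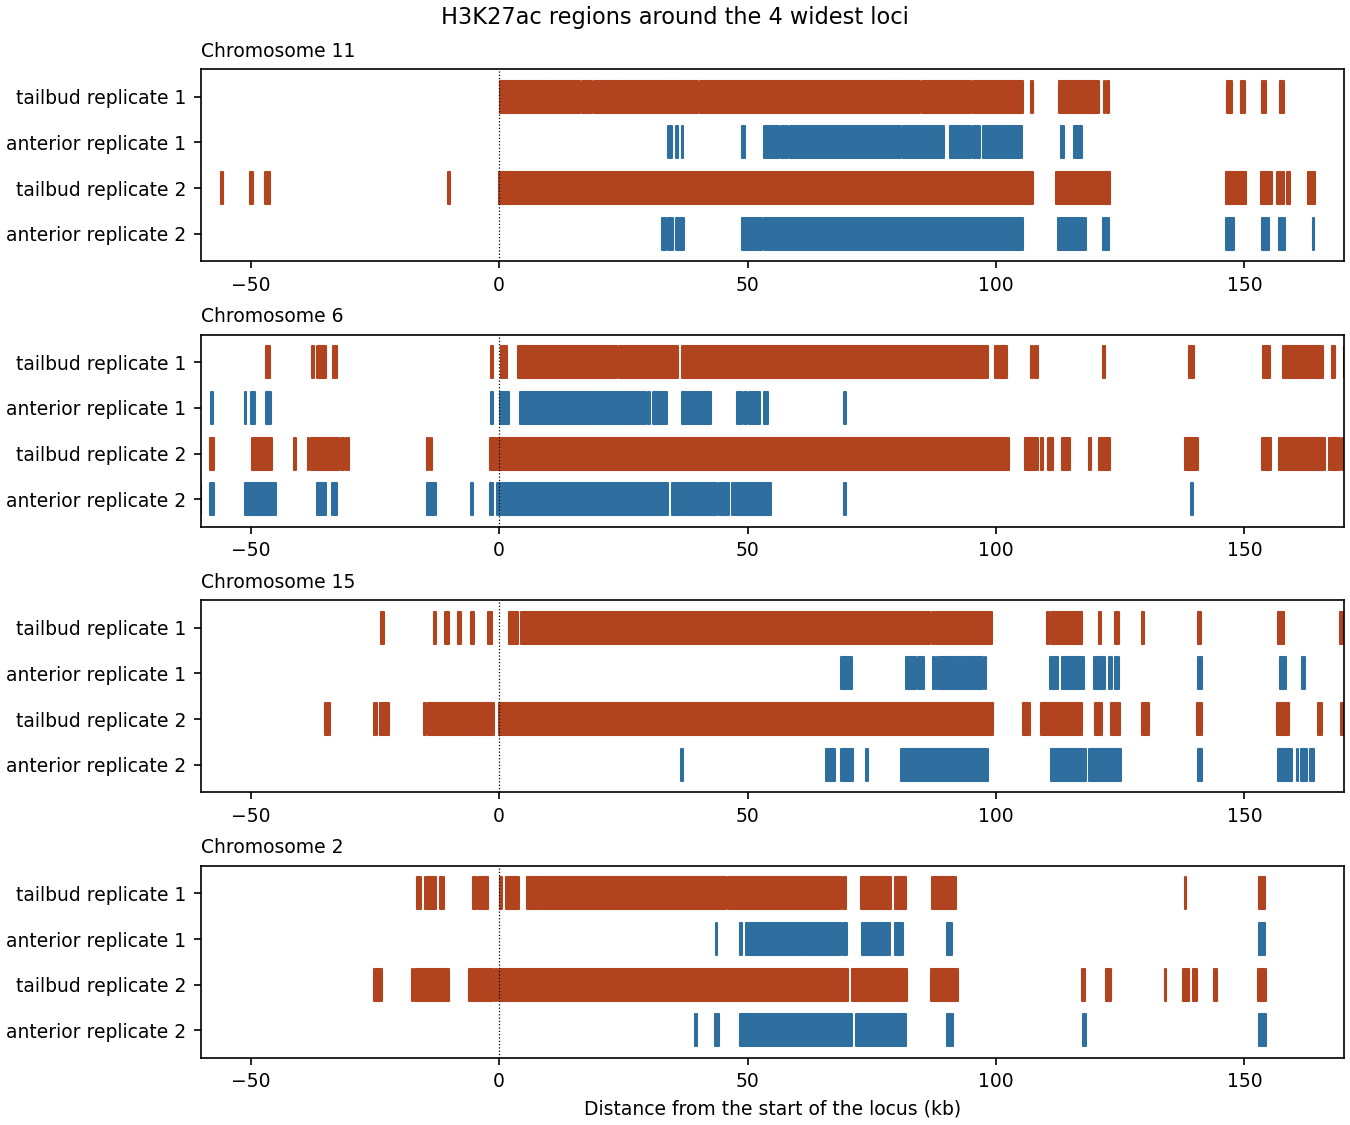
H3K27ac regions of the 4 libraries (red, tailbud; blue, anterior) around the 4 widest loci that lean to tailbud, by distance in kb from the lower coordinate of the locus. Each locus is by construction the extent of a tailbud replicate 2 region, and tailbud replicate 1 regions cover most of it. Anterior regions lie mostly to the right on chromosomes 11, 15 and 2 and to the left on chromosome 6.

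Around these loci the share of tailbud-specific loci was above the 5.66% of all loci. Within 500 kb on either side of the chr2 locus, 18 of 97 loci were tailbud-specific (18.6%) and 0 anterior-specific, and on chromosome 6 the counts were 18 (18.2%) and 0 of 99. On chromosome 15, 13 of 89 loci were tailbud-specific (14.6%) and 1 anterior-specific (1.12%). On chromosome 11, 8 of 81 were tailbud-specific (9.88%) and 2 anterior-specific (2.47%), the second count also above its share of all loci, 1.39%. Wide loci as a whole did not belong to tailbud alone. Of the 68 loci of at least 10 kb, 66 were in all 4 lists, 38 were wider in tailbud in both replicates and 24 were wider in anterior tissue in both. The widest of those that leaned to anterior tissue was chr7:77490610-77515776, covered to 50.9% and 73.7% in tailbud and to 72.3% and 99.7% in anterior tissue.

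Chromosomes ranked alike in both tissues. The density of regions was highest on chromosome 11, at 26.8 per Mb in tailbud and 19.9 per Mb in anterior tissue in replicate 1, and 46.2 and 38.8 per Mb in replicate 2. It was lowest on the X chromosome, at 4.36 per Mb in tailbud and 3.63 per Mb in anterior tissue in replicate 1, and 7.28 and 6.32 per Mb in replicate 2. Over the 20 chromosomes the densities of the tissues had a Spearman correlation of 0.98 in replicate 1 and 0.97 in replicate 2, a description over chromosomes that share libraries and gene density.

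The ratio of tailbud to anterior regions differed little between chromosomes. Over all regions the small differences mostly had the same sign in both replicates, but not among regions of at least 1000 bp. Chromosome 14 had 1.48 times as many tailbud as anterior regions in replicate 1 and 1.31 times as many in replicate 2, and chromosome 16 had ratios of 1.44 and 1.38. The X chromosome had 1.20 and 1.15, and chromosome 7 had 1.27 and 1.15. Relative to all chromosomes, the log2 ratio had the same sign in both replicates for 18 of 20 chromosomes, 11 above and 7 below, with a Pearson correlation of 0.79 and a Spearman correlation of 0.84 as a description. With regions of at least 1000 bp alone, the sign was the same in both replicates for 10 of 20 chromosomes. The mean relative log2 ratio of chromosome 7 was then -0.050, against -0.11 over all regions, and that of chromosome 14 was 0.028, against 0.096, while chromosome 16 had 0.12 in both cases. For X the relative log2 ratios were -0.19 in replicate 1 and -0.10 in replicate 2, and their mean was -0.15. It was -0.029 when regions under 1000 bp were left out. Tissue-specific loci were scarce on X for both tissues. Of its 1345 loci, 22 were tailbud-specific (1.64%) and 3 were anterior-specific (0.223%). From these few loci X had 7.33 tailbud-specific loci per anterior-specific one, while chromosome 16 had 6.79 and chromosome 7 had 2.85.

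**Figure D4:**
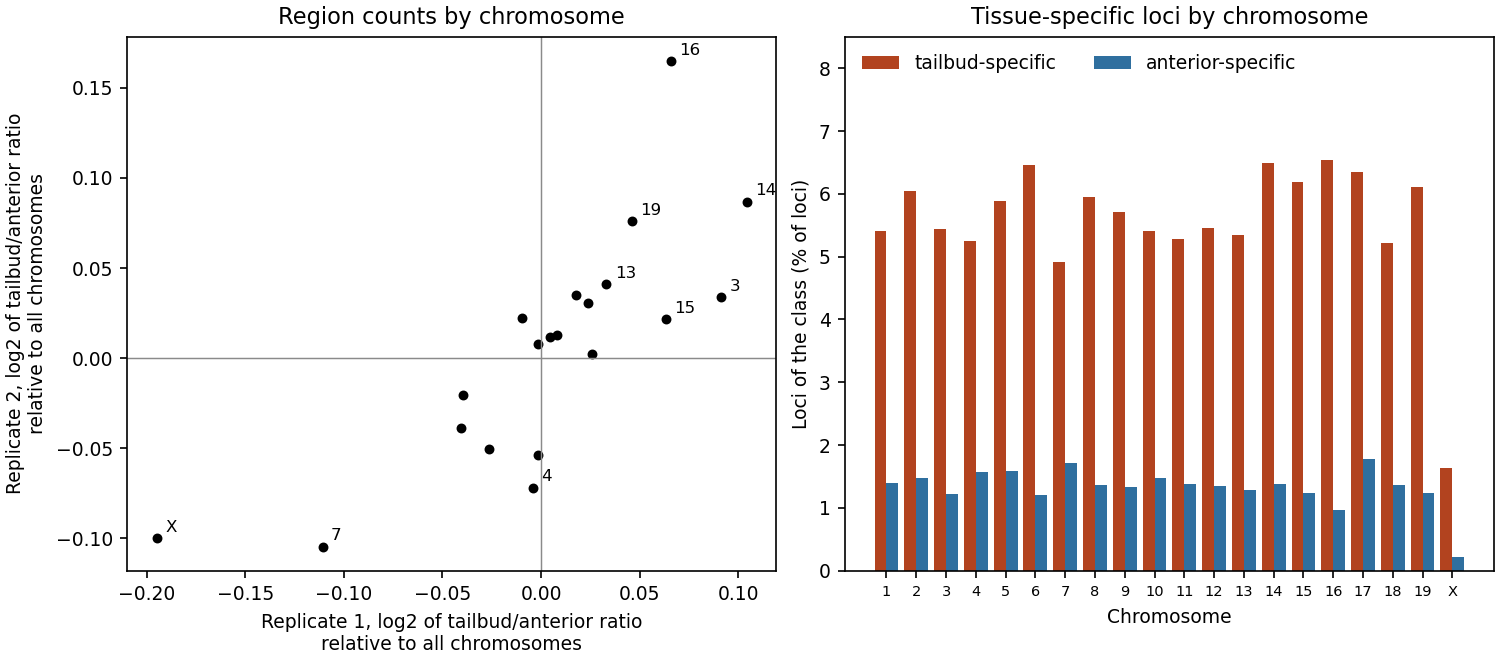
Left, log2 ratio of tailbud to anterior region counts of each chromosome relative to all chromosomes, replicate 1 on the horizontal and replicate 2 on the vertical axis; right, share of the loci of each chromosome (%) that were tailbud-specific (red) or anterior-specific (blue). X and 7 lie lowest in both replicates, 14 lies highest in replicate 1 and 16 in replicate 2, and X has the smallest share of both kinds of specific loci.

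Tissue-specific loci of one kind lay near each other. A cluster was defined as 3 or more specific loci of one tissue with gaps of at most 50 kb. Tailbud-specific loci formed 385 clusters with 1538 loci (29.3%; 28.1% to 30.5%), and 88 clusters held 5 or more. Anterior-specific loci, which were fewer, formed 29 clusters with 98 loci (7.61%; 6.28% to 9.19%), and 2 held 5 or more. The median distance to the nearest specific locus of the same tissue was 45.3 kb for tailbud and 249.8 kb for anterior tissue. Counts of this kind depend on how many loci there are, so the neighbours were also read against the share of each class. Of the loci next to a tailbud-specific one, 10.7% were tailbud-specific, against 5.66% of all loci, a ratio of 1.88. Of those next to an anterior-specific one, 5.59% were anterior-specific, against 1.39% of all loci, a ratio of 4.03. The anterior ratio was 1.98 from replicate 2 alone, 2.46 from replicate 1 alone, 2.75 with regions within 1 kb merged and 6.26 with regions of at least 1000 bp. In the same order the tailbud ratio was 1.41, 1.34, 1.64 and 2.46. The classes seldom adjoined. Anterior-specific loci made up 0.438% of the neighbours of tailbud-specific ones, against 1.39% of all loci, and tailbud-specific loci made up 1.79% of the neighbours of anterior-specific ones, against 5.66%.

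The biggest tailbud cluster was chr8:91904185-92095760, with 14 tailbud-specific loci in 191.6 kb. Regions covered 18.3 kb of it in tailbud replicate 1 and 59.1 kb in tailbud replicate 2, against 0 kb in anterior replicate 1 and 8.04 kb in anterior replicate 2. The cluster chr15:93363749-93566795 also held 14 loci, with 16.5 kb and 51.6 kb covered in tailbud against 2.095 kb and 5.02 kb in anterior tissue. At chr7:103634845-103759969 there were 11 loci, with 15.0 kb and 40.1 kb in tailbud against 1.42 kb and 7.53 kb. Clusters with 10 loci included chr16:95921655-96086673, with 14.8 kb and 47.5 kb in tailbud against 3.06 kb and 9.93 kb in anterior tissue. In chr6:87061546-87195529, 8.37 kb and 24.96 kb were covered in tailbud against 0 kb and 0.362 kb, and 3 of the 10 loci lay over H3K27ac of EpiSCs. The cluster chr14:29122751-29285314 had 20.5 kb and 50.01 kb in tailbud against 0 kb and 4.53 kb. These clusters were chosen for their tailbud-specific loci, so the direction of these widths follows from the choice. No anterior-specific locus lay between the loci of any of the 6.

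The biggest anterior cluster was chr13:55019736-55117872, with 8 anterior-specific loci in 98.1 kb, which included the widest anterior-specific locus. Regions covered 0.871 kb in tailbud replicate 1 and 1.91 kb in tailbud replicate 2, against 9.55 kb in anterior replicate 1 and 33.6 kb in anterior replicate 2. The cluster chr10:6177226-6218562 held 6 loci, with no tailbud region in either replicate against 2.77 kb and 10.4 kb in anterior tissue. Then came 3 clusters of 4 loci. In chr5:74625828-74673914, 2.13 kb and 8.01 kb were covered in tailbud against 3.18 kb and 19.3 kb in anterior tissue. In chr4:57770365-57839907 the widths were 5.27 kb and 12.6 kb in tailbud against 6.88 kb and 18.3 kb, so the tissues lay close together in replicate 1, and 1 tailbud-specific locus lay inside. In chr2:157312738-157366973 they were 0.734 kb and 5.78 kb in tailbud against 3.45 kb and 19.5 kb. The sixth, chr2:4373039-4394347, had 3 loci, with 0 kb and 0.506 kb in tailbud against 3.99 kb and 10.1 kb.

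In windows of 1 Mb the excess of tailbud-specific over anterior-specific loci was greatest at 93 to 94 Mb of chromosome 15, with 20 against 0. It was followed by 91 to 92 Mb of chromosome 8 with 19 against 0, 74 to 75 Mb of chromosome 2 with 18 against 0, and 52 to 53 Mb of chromosome 6 with 17 against 0. The last 2 windows hold wide loci described above. The excess of anterior-specific loci was at most 6. At 38 to 39 Mb of chromosome 1 there was 1 tailbud-specific locus against 7 anterior-specific ones, at 6 to 7 Mb of chromosome 10 there were 2 against 7, and at 55 to 56 Mb of chromosome 13 there were 3 against 8. A window on chromosome 18, whose position is not printed, had 0 against 5. The next, at 56 to 57 Mb of chromosome 17, had 2 against 6. Of the 2422 windows with a locus, 1477 held a tailbud-specific one, 792 an anterior-specific one and 633 both. Only 76 windows held 10 or more tailbud-specific loci, and these took 17.5% of all of them.

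The loci were then set beside region lists from EpiSCs, pluripotent lines derived from the epiblast, which turn towards axial progenitors when Wnt signalling is activated. ChIP-seq lists came from wild-type EpiSCs after 24h with the GSK3 inhibitor CHIR99021 and Fgf8, and covered Cdx2, T and H3K27ac with 2 replicates each and the coactivators CBP-P300 with 1. For those with replicates, regions found in both were used. The ATAC-seq lists of open chromatin came from CdxKO EpiSCs, at the start with the Wnt inhibitor IWP2 and after 48h of Chiron, with 1 library each.

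Sites of Cdx2, a homeodomain activator of posterior genes, lay at tailbud-specific loci more often than at anterior-specific ones. Of the 1075 Cdx2 sites of EpiSCs, some touched 148 of 5252 tailbud-specific loci (2.82%; 2.40% to 3.30%), against 1 of 1288 anterior-specific loci (0.0776%; 0.0137% to 0.438%). The share was 1.03% among loci in all 4 lists and 0.754% among all loci. At widths of 1000 to 2000 bp it was 2.98% for tailbud-specific and 0.187% for anterior-specific loci, so the order was the same among loci of like width. With loci of the 4 merged lists sorted by replicate 1 alone, Cdx2 sites lay at 2.03% of tailbud-only and 0.383% of anterior-only loci. Sorted by replicate 2 alone, the shares were 0.918% and 0.113%. Loci in both tissues had 1.03% in replicate 1 and 0.923% in replicate 2. Sorted by replicate 2 alone, tailbud-only loci thus had no excess over loci in both tissues. Seen from the sites, 39.6% of them lay in a tailbud region and 16.8% in an anterior region in replicate 1, and 63.6% and 34.7% in replicate 2.

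Sites of T, the T-box factor of streak and tailbud, were fewer and gave the same order. Of 766 T sites, some touched 33 of 5252 tailbud-specific loci (0.628%; 0.448% to 0.881%) and none of the 1288 anterior-specific loci, a count of 0 that allows a share of up to 0.233% by a floor of 3 counts, and 0.297% by the Wilson interval. Among all loci the share was 0.275%. With the same loci sorted by replicate 1 alone it was 0.504% of tailbud-only against 0.273% of anterior-only loci, with overlapping intervals. Sorted by replicate 2 alone it was 0.408% against 0.0482%. Of the T sites, 11.2% lay in a tailbud region and 4.70% in an anterior region in replicate 1, and 30.0% and 12.0% in replicate 2.

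Most loci marked in all 4 lists were also marked in EpiSCs, while most tissue-specific loci were not. H3K27ac of EpiSCs covered part of 70.5% of the loci in all 4 lists, but of 6.87% of tailbud-specific and 3.804% of anterior-specific loci, against 18.5% of all loci. With loci merged from replicate 2 alone these shares were 3.03% for tailbud-specific and 1.72% for anterior-specific loci. From replicate 1 alone they were 12.2% and 8.33%, and with regions of at least 1000 bp 23.8% and 20.6%. CBP-P300 regions lay at 38.5% of the loci in all 4 lists, at 4.46% of tailbud-specific and 1.94% of anterior-specific loci, and at 10.2% of all loci. Their shares at tailbud-specific and anterior-specific loci were 1.75% and 0.877% from replicate 2 alone, 5.89% and 3.43% from replicate 1 alone, and 14.8% and 7.54% with regions of at least 1000 bp.

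Open chromatin of CdxKO EpiSCs had the opposite order from Cdx2 and T. After 48h of Chiron, ATAC-seq regions lay at 11.8% of tailbud-specific loci (10.9% to 12.7%) and at 36.7% of anterior-specific loci (34.1% to 39.4%). The share over all loci was 33.1%, so tailbud-specific loci lay below it and anterior-specific loci near it. At the start the shares were 10.8% for tailbud-specific and 24.8% for anterior-specific loci, both below the 30.4% of all loci. Loci open at 48h and not at the start made up 4.80% of tailbud-specific, 16.2% of anterior-specific and 5.89% of all loci. At widths of 1000 to 2000 bp the 48h shares were 12.1% for tailbud-specific and 39.6% for anterior-specific loci, both below the 49.7% of all loci in that band. Within replicate 1 alone, 28.6% of tailbud-only and 44.5% of anterior-only loci were open at 48h, and within replicate 2 the shares were 8.42% and 17.1%. No ATAC-seq list of wild-type cells was used here, so the order in these CdxKO cells has no wild-type reference.

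**Figure D5:**
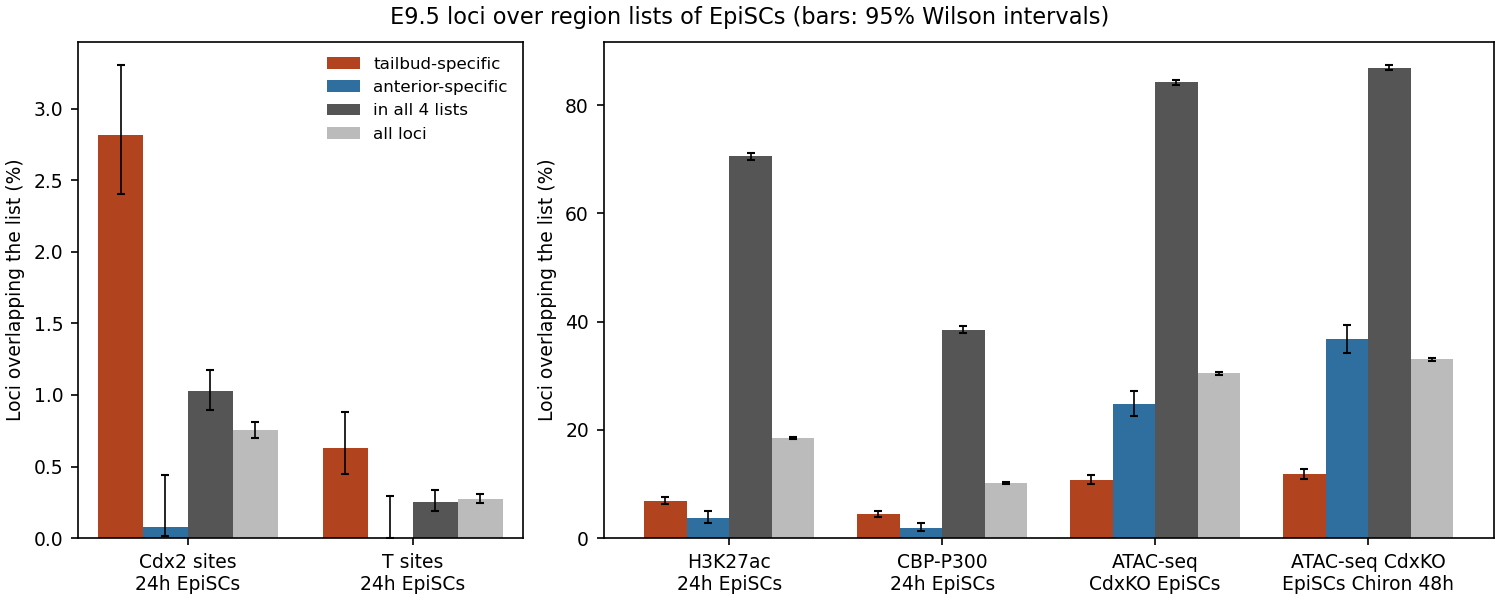
Share of loci (%) that overlap a region list of EpiSCs, for tailbud-specific (red), anterior-specific (blue), loci in all 4 lists (dark grey) and all loci (light grey), with 95% Wilson intervals; the left and right panels differ in scale. Cdx2 and T sites are most frequent at tailbud-specific loci, whereas ATAC-seq regions of CdxKO EpiSCs lie at more anterior-specific than tailbud-specific loci at both times.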

How the data were processed

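ChIP-seq regions came as the deposited lists, 1 per library, which hold positions in mm9 with no score. Per the submitters' processing notes, ChIP reads were handled with Bowtie 1.1.0, SAMtools 0.1.19 and MACS2 2.1.0, and ATAC-seq reads also with cutadapt 1.8.1 and Bowtie2 2.1.0. Calling thresholds are not given in the sources used here, and the narrowest region of each list spans 300 bp. Lists depend on depth and on the threshold, so a missing region is not a measured absence of the mark.

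Regions on chromosomes 1 to 19 and X were read with Python 3.11.15, numpy 2.4.6 and pandas 2.3.3, and overlaps were checked against bedtools 2.31.1 on the deposited lists. Locus classes and cluster counts were checked on simulated regions. Regions of the 4 lists that overlapped or touched were merged into loci. Densities are per Mb of the span between the outermost regions of a chromosome over all lists. Named are, per tissue, the 6 clusters with most specific loci, the 4 widest specific loci, the 4 loci of all 4 lists with the largest width difference of one direction in both replicates, and the 4 windows of 1 Mb with the largest excess. By the rule, positions on chromosome 18 are not printed. A window there is among the 4 for anterior tissue, and the next window is given beside it. Members and lists were chosen with earlier results of these data known. RNA tables of the series were not used. Replicate numbers pair tissues through the antibody batch that the labels record. Alternatives changed the overlap, the merging gap, the narrowest width, list lengths, input regions, chromosomes and replicates.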

Additional observations from a re-analysis of the deposited data

How the results depend on the processing

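No p-value stands behind these values, and depth is unknown, which limits every statement on missing regions. Each value that answers a comparison was recomputed under each alternative that applied to it. In 48 of these pairs of value and alternative, the value moved by less than the replicate spread or interval (for counts, by less than 1.5 times). In 45 pairs it moved by more, and in 1 it changed sign. The one that changed sign is the log2 ratio of median widths, -0.04, which became 0.0067 with regions of at least 1000 bp and -0.0076 with mean widths. Leaving out regions over input changed none of these values beyond that limit.

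With an overlap of at least 50%, tailbud sharing (mean 56.3%) was 50.6%, repeats of tailbud-only loci (39.5%) 35.9% and of anterior-only loci (35.2%) 32.5%, and anterior-specific loci (1288) numbered 725. The share of tailbud-specific loci that Cdx2 sites covered to at least 50% was 0%. ATAC-seq regions at 48h covered 11.03% of anterior-specific loci to that extent. With regions of at least 1000 bp these values were 64.6% for sharing, 25.3% and 21.7% for repeats, 1087 tailbud-specific and 199 anterior-specific loci, 35 tailbud and 1 anterior clusters, -0.029 for chromosome X, 7.08% for Cdx2 and 73.4% for ATAC-seq. With lists of equal length they were 66.3%, 35.7% and 32.0%, 2531 tailbud-specific loci, 116 tailbud and 49 anterior clusters, and 4.19% for Cdx2. Regions within 1 kb merged gave repeats of 38.4% and 33.4%, with 209 tailbud and 11 anterior clusters. Linking gaps of 25 kb and 100 kb gave 16 and 47 anterior clusters. Among loci of 1000 to 2000 bp, a band added after seeing the data, ATAC-seq at 48h gave 39.6%. The cause of these shifts was not tested.

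With no replicate block, tailbud was paired with anterior tissue of the other number, or lists were pooled. Paired so, tailbud sharing was 81.5% for tailbud replicate 1 and 29.9% for tailbud replicate 2, with a mean of 55.7%. Pooled lists gave 33648 tailbud-specific and 18665 anterior-specific loci. From 1 replicate alone, tailbud-specific loci numbered 17097 to 33406 and anterior-specific loci 5328 to 18690, with 1850 to 3630 tailbud and 482 to 2166 anterior clusters, since a locus then need not repeat. Cdx2 lay at 0.916% to 1.49% of tailbud-specific loci and ATAC-seq at 17.0% to 36.3% of anterior-specific loci.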
